A study of Caenorhabditis elegans with 12 samples.

Results

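The transcriptomes of *lin-29* and *mab-10* mutant adults were compared directly, to ask which genes respond to loss of LIN-29 but not to loss of its co-factor MAB-10, and which respond to both. The 6 libraries chosen are all those labelled *lin-29* (3) or *mab-10* (3), of 12 in the series. The *lin-29* strain MT24358 carries the n836 allele and the *mab-10* strain MT19733 the tm2497 allele. The 3 wild-type libraries (VT1367) and the 3 of *ddx-23* mutants (MT23825, allele n5705) served as reference levels. Each genotype is a single strain, so other differences between the strains cannot be told apart from the mutated gene. All 4 strains carry the *maIs105* [*col-19::gfp*] transgene, so every genotype, the wild-type included, has this adult reporter. Each library came from whole young adult hermaphrodites, kept at 20 °C, picked by hand and pooled. The levels therefore mix hypodermis, intestine, germline and all other tissues, and fewer cells of a type cannot be told apart from less RNA per cell.

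LIN-29 is a zinc-finger transcription factor of the EGR family and stands last in the heterochronic pathway, the series of regulators that times larval development. It acts at the final molt in the hypodermis, where seam cells stop dividing and fuse, the larval cuticle program ends and adult cuticle collagens are made. MAB-10 is the worm NAB protein, a co-factor that has no DNA-binding domain of its own and acts through EGR proteins.

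The level of a gene is given as log2(FPKM+1), FPKM being the fragment count scaled by transcript length and library size, and every difference below is the *lin-29* mean minus the *mab-10* mean on that log2 scale unless another pair is named. Of 46761 genes, 14199 reached an FPKM of 1 in 3 or more libraries and entered one limma model of the 4 genotypes. FPKM sums per library were 1038344 to 1130220, and in the *lin-29* and *mab-10* libraries 127 to 348 of these genes had no signal. The library numbers fall into an earlier and a later series, a division made with the values in view. The *lin-29* and the *mab-10* mutants each have 1 earlier library (replicate 1) and 2 later ones. Wild-type replicates 1 and 2 are earlier and replicate 3 later, and all *ddx-23* libraries are earlier. Differences from the wild-type are therefore not balanced by series.

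Neither mutated gene differed between the strains at an adjusted p under 0.05. The *lin-29* gene (WBGene00003015, WBcel235 chromosome II, 11917642 to 11935343) was at 3.27, 2.85 and 3.25 in *lin-29* mutants and at 2.74, 2.56 and 2.52 in *mab-10* mutants. The 3 *lin-29* libraries were thus the higher ones, by 0.52 (95% interval 0.11 to 0.92, adjusted p = 0.113 from limma), above a wild-type range of 1.90 to 2.13. The *mab-10* gene (WBGene00003107, chromosome II, 10528084 to 10534380) was at 3.03, 3.02 and 3.23 in *lin-29* mutants and 2.67, 3.15 and 2.89 in *mab-10* mutants, which overlap (difference 0.19, 95% interval -0.27 to 0.66). A level summed over the whole gene cannot show an allele that leaves the transcript, so these values are no check of the labels.

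Many more genes were higher than lower in *lin-29* mutants relative to *mab-10* mutants. With an adjusted p under 0.05 from limma and a difference over 1, which is a doubling of FPKM+1, 753 genes were higher (5.30% of those tested) and 114 were lower (0.803%). The median difference was 1.65 among the higher genes, of which 259 exceeded 2 and 45 exceeded 4. The lower genes had a median of -1.36, with 26 beyond 2 and 5 beyond 4. All 3 *lin-29* libraries lay above all 3 *mab-10* libraries for 746 of the 753 higher genes, against 15.4% of all tested genes, and below them for all 114 lower genes, against 8.49%. Across all tested genes the median difference was -0.00417, and the SE of a difference had a median of 0.22. After quantile normalization the split was less uneven, with 73.8% of the called genes higher in place of 86.9%. Without *lin-29* replicate 3 the number of higher genes fell to 491.

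**Figure D1:**
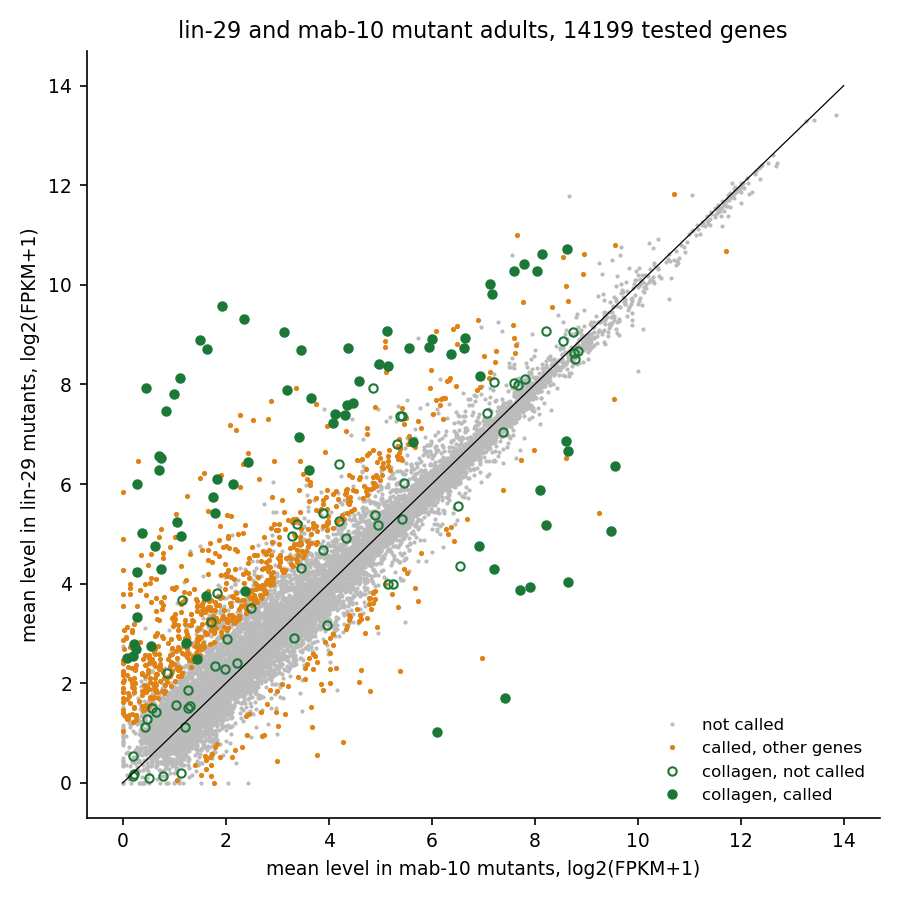
Each point is 1 of the 14199 tested genes, with its mean level in the 3 *mab-10* libraries on the horizontal axis and in the 3 *lin-29* libraries on the vertical axis, both as log2(FPKM+1). The line marks equal levels; collagens (green) hold many of the points farthest from it on both sides.

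The library series were also read separately. The higher genes had a median difference of 1.61 in the earlier pair of libraries and 1.75 between the means of the later libraries, and the lower genes -1.37 and -1.40. In both series, 582 of the higher and 76 of the lower genes differed by more than 1. Since the genes were called from these same libraries, this describes the size of the difference in each series and is no separate evidence for it.

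Wild-type means were nearer to *mab-10* than to *lin-29* means for most of these genes. On a line where the *mab-10* mean is 0 and the *lin-29* mean is 1, the wild-type mean was nearer to *mab-10* for 705 of the 753 higher genes (93.6%) and for 87 of the 114 lower genes (76.3%), against 61.1% of all tested genes. It lay within 0.25 of the *mab-10* mean on that line for 364 of the higher (48.3%) and 57 of the lower genes (50%), and for 16.8% of all tested genes. The position divides by the difference between the mutants, and the called genes were picked for a large one. For genes with a small difference the position is unstable, so the shares over all tested genes are not a like baseline. Relative to the wild-type, the higher genes had a median difference of 1.94 in *lin-29* mutants and 0.12 in *mab-10* mutants. For the lower genes these medians were -1.12 and 0.17. Since both mutants are set against the same wild-type libraries, these medians share those samples. By the call used above, *lin-29* mutants differed from the wild-type upward for 11.1% and downward for 0.845% of tested genes, and *mab-10* mutants for 0.901% and 0.134%.

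**Figure D2:**
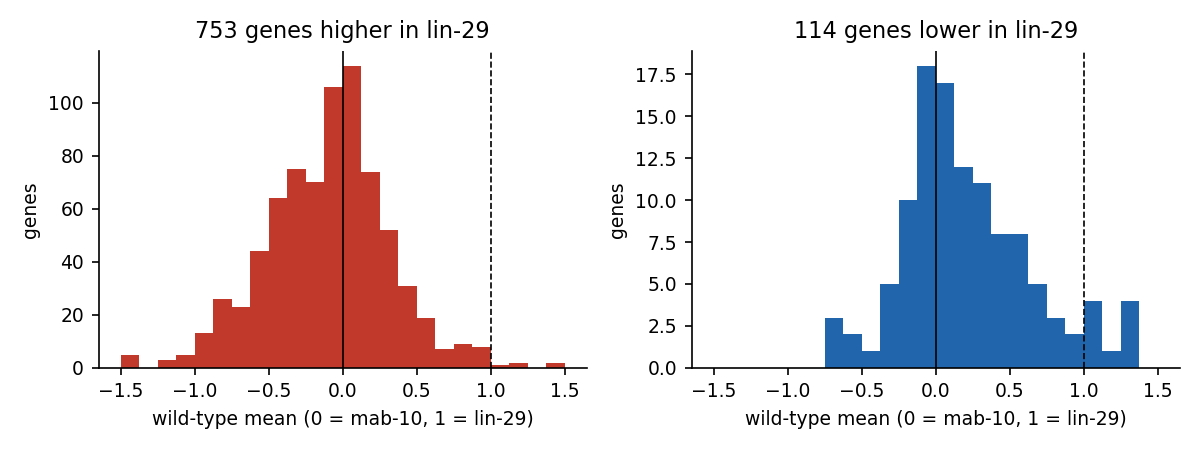
Position of the wild-type mean between the mutant means, for the genes higher (left) and lower (right) in *lin-29* than in *mab-10* mutants; 0 (solid line) is the *mab-10* mean, 1 (dashed line) is the *lin-29* mean, the vertical axis counts genes, and positions beyond 1.5 in either direction are drawn at that limit. Both distributions peak near 0.

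Cuticle collagens, the triple-helical proteins that build the worm's exoskeleton and are made in stage-specific sets, led both ends of the comparison. Of 135 tested collagens, 65 rose (48.1%, against 7.28% of all tested genes with an adjusted p under 0.05) and 13 fell (9.63%, against 2.13%), counted by the adjusted p from limma alone. The 57 others did not pass. The median difference over all 135 was 1.60. Leaving out any 1 library, or any other alternative tried, kept both counts within 1.5 times these.

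Of the 12 genes with symbols that rose most, all 12 were collagens. *dpy-5* (WBGene00001067, chromosome I, 5432197 to 5433051), mutation of which gives short, dumpy worms, was at 8.62, 9.83 and 10.25 in *lin-29* mutants and 3.09, 0.60 and 2.11 in *mab-10* mutants. The 2 groups were far apart, by 7.63 (SE 0.61, adjusted p = 2.85e-05 from limma), a 222-fold ratio of mean FPKM, while the wild-type libraries were at 3.80, 3.25 and 2.18. *dpy-13* and *dpy-4*, also needed for normal body length, differed by 7.40 and 7.08. *rol-6*, known for the dominant Roller mutation used as a transformation marker, was at 4.75, 6.56 and 6.69 in *lin-29* mutants and 0.81, 0.03 and 0.00 in *mab-10* mutants, near the floor of the scale in the latter. Its partner collagens *sqt-1* and *rol-8* differed by 5.78 and 5.85, and in all 3 genes replicate 1 was the lowest *lin-29* library. *col-41* (chromosome X, 15175032 to 15176481) was at 6.88, 8.31 and 8.58 in *lin-29* mutants and at 0.64, 0.18 and 0.52 in *mab-10* mutants, where it was as low as in wild-type adults (0.56, 0.93 and 0.10). Its difference of 7.48 was exceeded by that of *dpy-5* alone. *col-17* differed by 5.92, with *mab-10* libraries at 2.85, 3.15 and 3.41.

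The 6 annular furrow collagens, which form the circumferential furrows of the cuticle, all had higher means in *lin-29* mutants, by 1.06 to 4.64. *dpy-8* (difference 4.64) and *dpy-9* (3.83) passed the test, and the other 4 of 6 did not. At an unadjusted p under 0.05 from limma 5 were higher, and for 5 all *lin-29* libraries lay above all *mab-10* libraries. With the replicate block, a term that matches same-numbered libraries, 4 of the 6 passed in the fit of 12 libraries and all 6 in that of the 6 *lin-29* and *mab-10* libraries. Without the block the median difference of the 6 was 1.75. Relative to the wild-type, the 6 had a median difference of 3.14 in *lin-29* mutants and 1.19 in *mab-10* mutants.

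**Figure D3:**
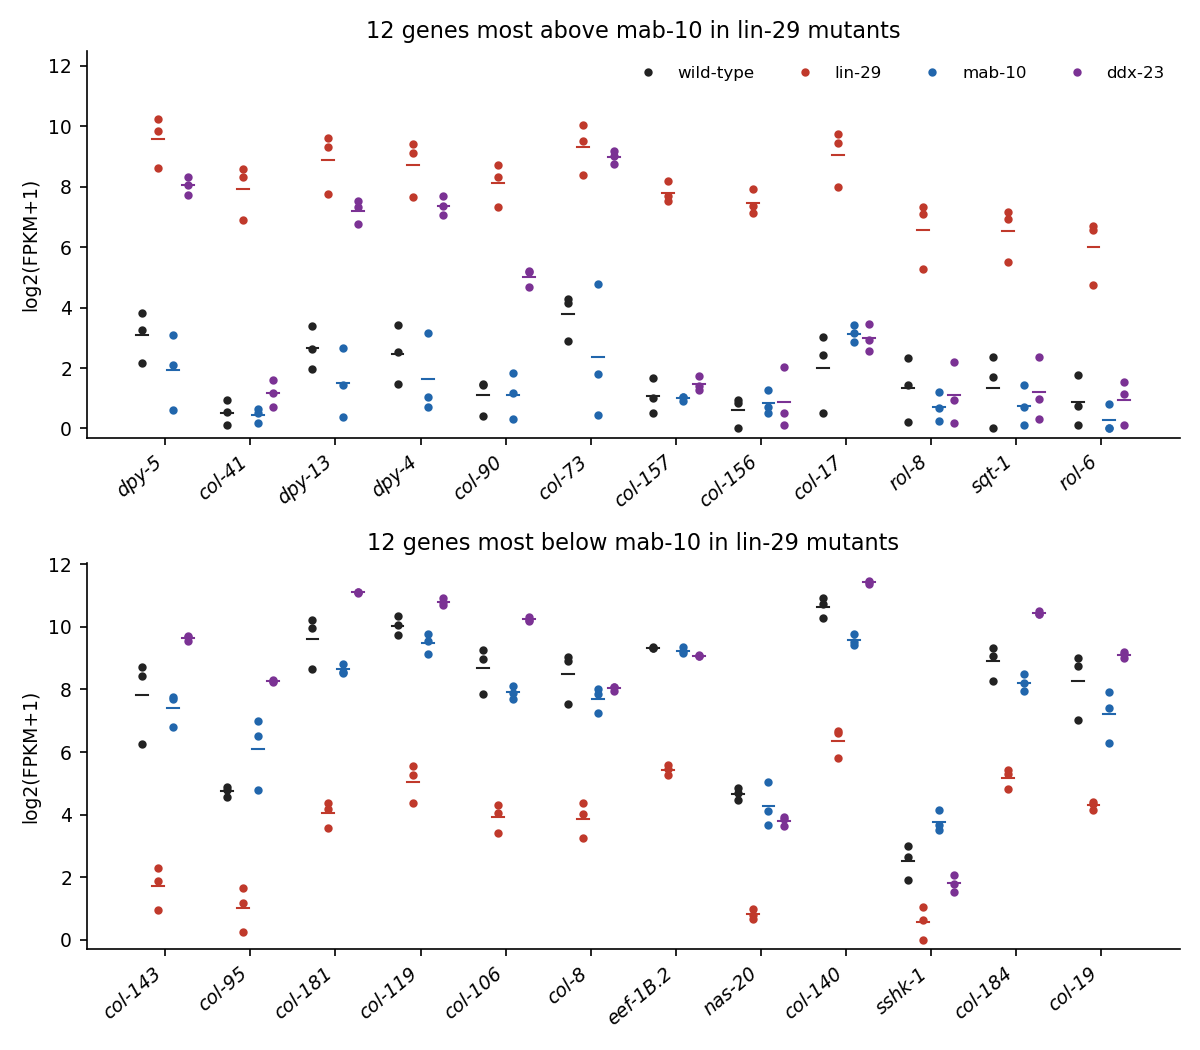
Levels as log2(FPKM+1) in each library (points) with the group mean (bar), for the 12 genes with symbols that were most above (top) and most below (bottom) the *mab-10* mean in *lin-29* mutants. The *lin-29* libraries (red) stand apart from *mab-10* (blue) and wild-type (black) libraries, and *ddx-23* libraries (purple) are high for *dpy-5*, *dpy-13*, *dpy-4*, *col-90* and *col-73*.

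The 13 collagens that fell were *col-8*, *col-19*, *col-20*, *col-95*, *col-106*, *col-119*, *col-122*, *col-140*, *col-143*, *col-178*, *col-179*, *col-181* and *col-184*. They were abundant in wild-type adults, with a median level of 8.89, and had medians of 8.11 in *mab-10* and 4.75 in *lin-29* mutants. For 12 of the 13 the *mab-10* mean was below the wild-type mean, and the median *mab-10* minus wild-type difference was -0.78, where 2 of the 13 passed the test. *col-143* (chromosome V, 6835635 to 6836704) was at 0.96, 1.88 and 2.30 in *lin-29* mutants and 6.81, 7.74 and 7.70 in *mab-10* mutants. The groups differed by -5.70 (SE 0.56, adjusted p = 0.000126 from limma). *col-95* fell by 5.07 and was the 1 lower collagen whose *mab-10* mean was above the wild-type mean, by 1.36 (adjusted p = 0.166 from limma). *col-181*, *col-119* and *col-106* fell by 4.59, 4.42 and 3.98.

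The adult collagens used as markers of the larval-to-adult switch did not move as one. *col-19* (chromosome X, 421707 to 422691), the classic adult-specific collagen and the source of the reporter promoter in these strains, was at 4.15, 4.42 and 4.34 in *lin-29* mutants. It was at 6.30, 7.93 and 7.41 in *mab-10* mutants and 9.01, 8.76 and 7.01 in the wild-type. The later wild-type library, replicate 3, was below the later *mab-10* libraries. The *lin-29* libraries were thus below all others, by 2.91 against *mab-10* (adjusted p = 0.00352 from limma), and the *mab-10* minus wild-type difference of -1.05 did not pass (adjusted p = 0.245). *col-7*, another adult-stage collagen, had the opposite order, at 1.65, 2.70 and 3.28 in *lin-29* mutants and 0.00, 0.60 and 0.00 in *mab-10* mutants (difference 2.34, adjusted p = 0.0409 from limma). *col-62* was likewise higher in *lin-29* mutants, by 1.60 (adjusted p = 0.0257), and its *lin-29* minus wild-type difference was -0.14. The *mab-10* minus wild-type differences of *col-7* and *col-62* were -2.83 and -1.73, each with an adjusted p of 0.0584. The call of *col-19* held with any 1 library left out. Those of *col-7* and *col-62* were lost without *lin-29* replicate 2 or 3 or *mab-10* replicate 1 or 2, with adjusted p values from limma of 0.0669 to 0.161 and 0.0607 to 0.092, and that of *col-7* also without *mab-10* replicate 3, wild-type replicate 1 or any *ddx-23* library (0.0596 to 0.107) and with the replicate block on 12 libraries (0.0543).

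Summed over all collagens, FPKM was 21500 to 30600 in *lin-29* libraries and 10700 to 12900 in *mab-10* libraries. The wild-type libraries spanned 8990 to 17400 and overlapped those of *mab-10* mutants. The *ddx-23* libraries were at 29900 to 35100 and overlapped those of *lin-29* mutants.

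In list medians, enzymes and matrix proteins of the molt were graded, with *mab-10* mutants between the wild-type and *lin-29* mutants. These medians mix the library series, which are not balanced between *mab-10* mutants and the wild-type. The precuticle, a transient matrix laid down before each cuticle, had 8 of 20 members higher and 0 lower (15 and 0 at an unadjusted p under 0.05 from limma), with medians relative to the wild-type of 2.52 in *lin-29* and 1.04 in *mab-10* mutants. They were *mlt-8*, *lpr-5*, *lpr-7*, *mlt-11*, *lpr-3*, *sym-1*, *lpr-1* and *dpy-6*, with differences of 1.24 to 2.73. The precuticle count was unstable, at 1 when *lin-29* replicate 3 or *mab-10* replicate 1 was left out, 2 when replicate 2 of either mutant was, 4 or 5 without a *ddx-23* library and 14 without wild-type replicate 3. The replicate block gave 13 with 12 libraries and 14 with 6. The astacin metalloproteases, some of which cut the old cuticle at ecdysis, had 11 of 22 members higher and 1 lower. *nas-38* (2.78) and *nas-36* (2.34) rose most. *nas-20* went the other way, at 0.67, 0.79 and 1.0 in *lin-29* mutants and 5.03, 4.11 and 3.67 in *mab-10* mutants, which did not overlap (difference -3.45, adjusted p = 4.02e-05 from limma). The astacin count was 6 without replicate 2 of either mutant, 5 without *lin-29* replicate 3 and 7 if *mab-10* replicate 1 was left out. In the collagen modification list, whose members are not all enzymes, 3 of 14 genes rose (21.4%, against 7.28% of all tested genes). They were *mlt-7* (1.44), *dpy-11* (0.38) and the protease inhibitor *bli-5* (2.13). With the replicate block on 6 libraries 6 of the 14 rose. Of 5 tyrosinases, copper enzymes that can crosslink proteins, *tyr-2* (2.30) and *tyr-4* (0.70) rose. *tyr-4* was also higher than the wild-type in both mutants, by 2.42 in *lin-29* and 1.73 in *mab-10*, where both passed the test.

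Worms have no canonical Hedgehog but many secreted Hedgehog-related proteins (warthog, groundhog, ground-like, quahog) and Patched-related membrane proteins, with known parts in molting and cuticle formation. Among 26 groundhog, ground-like, hog and quahog genes, 8 were higher in *lin-29* mutants (30.8%, against 7.28% of all tested genes) and 0 lower. At an unadjusted p under 0.05 from limma these counts were 11 and 1. The count of 8 became 13 without *lin-29* replicate 1 and also with the replicate block on 6 libraries. *grd-14* (chromosome X, 8500021 to 8501037) was at 6.93, 7.17 and 7.85 in *lin-29* mutants and 1.82, 3.19 and 3.45 in *mab-10* mutants. Its *mab-10* libraries overlapped the wild-type range of 1.77 to 2.90, and it was 4.49 higher in *lin-29* mutants (SE 0.43, adjusted p = 0.000113 from limma). *grl-21* and *grd-6* differed by 3.24 and 2.90. Of 8 warthog genes 2 rose, *wrt-4* and *wrt-10*, a count that was 0 if *lin-29* replicate 3 or *mab-10* replicate 1 was dropped, 1 without replicate 2 of either mutant, and 6 without *lin-29* replicate 1.

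The Patched-related proteins are putative receptors. Of 26 Patched and Patched-related genes, 8 rose (30.8%, against 7.28% of all tested genes) and 0 fell. At an unadjusted p under 0.05 from limma these counts were 16 and 0. Medians relative to the wild-type were 1.56 in *lin-29* and 0.74 in *mab-10* mutants. *ptr-4* (chromosome X, 6060758 to 6065986) was at 3.93, 4.89 and 5.29 in *lin-29* mutants and 1.52, 2.30 and 2.71 in *mab-10* mutants, without overlap (difference 2.53, adjusted p = 0.0053 from limma). *ptr-12* and *ptr-10* differed by 1.51 and 1.43. The count of 8 became 15 without *lin-29* replicate 1, 5 without replicate 2 of either mutant and 4 without *lin-29* replicate 3.

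**Figure D4:**
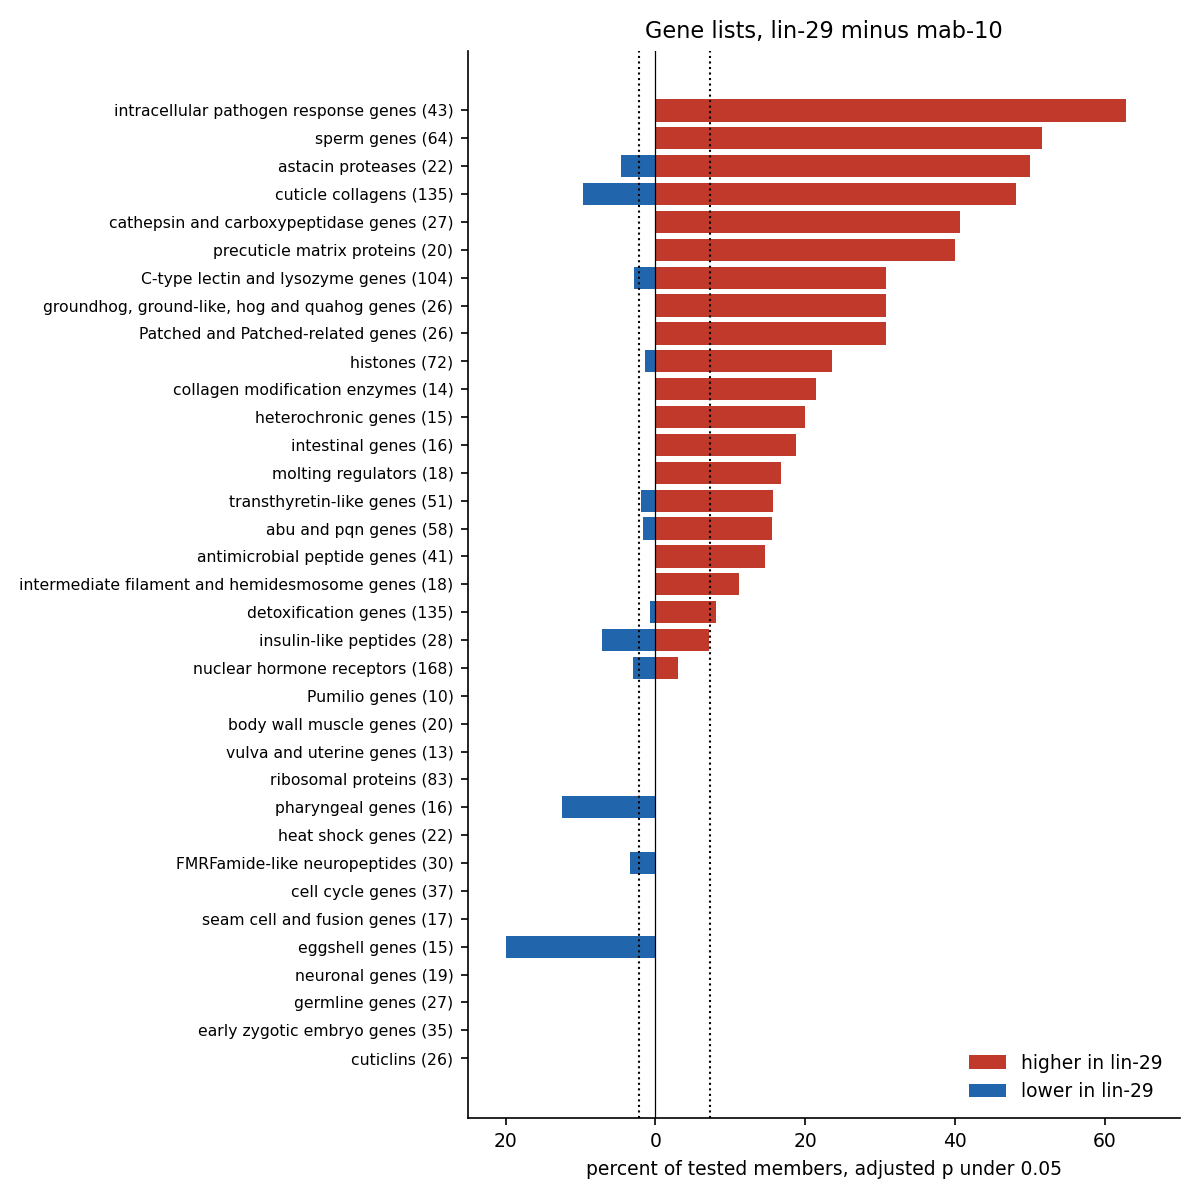
Percent of the tested members of each gene list with 10 or more tested (number in parentheses; the pathogen response list was drawn up after the values had been seen) with an adjusted p under 0.05, higher in *lin-29* than in *mab-10* mutants to the right and lower to the left. The dotted lines mark the shares of all tested genes, 7.28% and 2.13%; 65 of 135 collagens rose and 13 fell, and no cuticlin passed.

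Cuticlins, seam cell and fusion genes and cell cycle genes had no member that passed between the mutants, while 3 of 15 heterochronic genes did. The 26 tested cuticlins, zona pellucida domain proteins that form the lateral ridges called alae among other cuticle parts, had 0 members that passed, and 1 was higher at an unadjusted p under 0.05 from limma. Their summed FPKM was 87.3, 422 and 504 in *lin-29* mutants and 56.7, 230 and 412 in *mab-10* mutants, which overlap, and replicate 1 of the earlier series was the low library in each. Their medians relative to the wild-type were 1.02 and 0.94. Of 17 seam cell and fusion genes and 37 cell cycle genes, none passed by limma, and the median differences were -0.05 and -0.15. At an unadjusted p under 0.05, 1 seam cell or fusion gene was higher and 1 lower, and 7 cell cycle genes were lower. No share over all tested genes at that threshold stands beside these counts, so they are a description only. In the heterochronic list 3 of 15 genes rose, *lin-42* (1.5), the non-coding RNA *lep-5* (0.71) and *sea-2* (0.68). The call of *lin-42*, the worm period homolog that times molts, had an adjusted p of 0.0483 from limma, and leaving out *lin-29* replicate 3 left 0 genes of the list past the threshold. The count was 1 without *lin-29* replicate 2 and without *mab-10* replicate 1 or 3.

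Some genes changed to a like extent in both mutants. These were taken as the genes called in the same direction against the wild-type in *lin-29* and in *mab-10* mutants, with a 95% interval of the difference between the mutants inside -1 to 1. There were 46, of which 41 were higher and 5 lower than in the wild-type. The rule caps this number, since 128 genes were called higher and 19 lower in *mab-10* mutants than in the wild-type. The gene named C27C7.1 (WBGene00007766, chromosome I, 11439289 to 11440709) was at 7.15, 6.73 and 6.74 in *lin-29* mutants and 7.48, 6.55 and 6.40 in *mab-10* mutants. It was nearly silent, at 0.00 to 0.12, in all wild-type and *ddx-23* libraries, and the mutants differed by 0.06 (95% interval -0.49 to 0.61). *puf-6*, which encodes an RNA-binding protein of the Pumilio family (chromosome II, 13039792 to 13043445), was at 7.22, 6.67 and 6.75 in *lin-29* mutants and 7.19, 7.11 and 7.13 in *mab-10* mutants, against 2.95 to 3.38 in the wild-type. Its difference was -0.26 (95% interval -0.60 to 0.07), and without *lin-29* replicate 1 that difference passed the test, with an adjusted p of 0.0401. In the fit of all 12 libraries none of the 10 tested Pumilio genes passed, and 2 were lower at an unadjusted p under 0.05 from limma.

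Some cuticle genes belonged to this shared set. *col-81* (chromosome II, 11012397 to 11013767) fell in both mutants. It was at 5.04, 5.48 and 5.38 in *lin-29* mutants, at 5.81, 5.84 and 4.61 in *mab-10* mutants and at 8.67, 8.49 and 7.77 in the wild-type. The mutants overlapped, with a difference of -0.12 (95% interval -0.82 to 0.57), unlike those of *col-19* and the other adult-abundant collagens above. *col-94* rose in both, by 1.86 in *lin-29* and 2.0 in *mab-10* mutants relative to the wild-type. The groundhog gene *grd-13* rose by 2.51 and 2.34, next to a between-mutant difference of 0.17 (95% interval -0.46 to 0.81). *saeg-2* was below the wild-type by a like amount in each, with differences of -2.18 for *lin-29* and -2.30 for *mab-10*. Intermediate filament and hemidesmosome genes attach hypodermis to cuticle and muscle, among other roles. Of 18 such genes 4 met the rule, against 46 of all 14199 tested genes, namely *pat-12*, *mua-6*, *ifb-1* and *let-805*. The *lin-29* minus *mab-10* differences of the last 3 were 0.05, 0.09 and 0.40. For *let-805* the 95% interval was 0.04 to 0.76, so it met the rule although its interval lay above 0. *mua-3*, a transmembrane matrix receptor of the same list, was outside the shared set and rose by 1.38 (adjusted p = 0.00527 from limma).

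**Figure D5:**
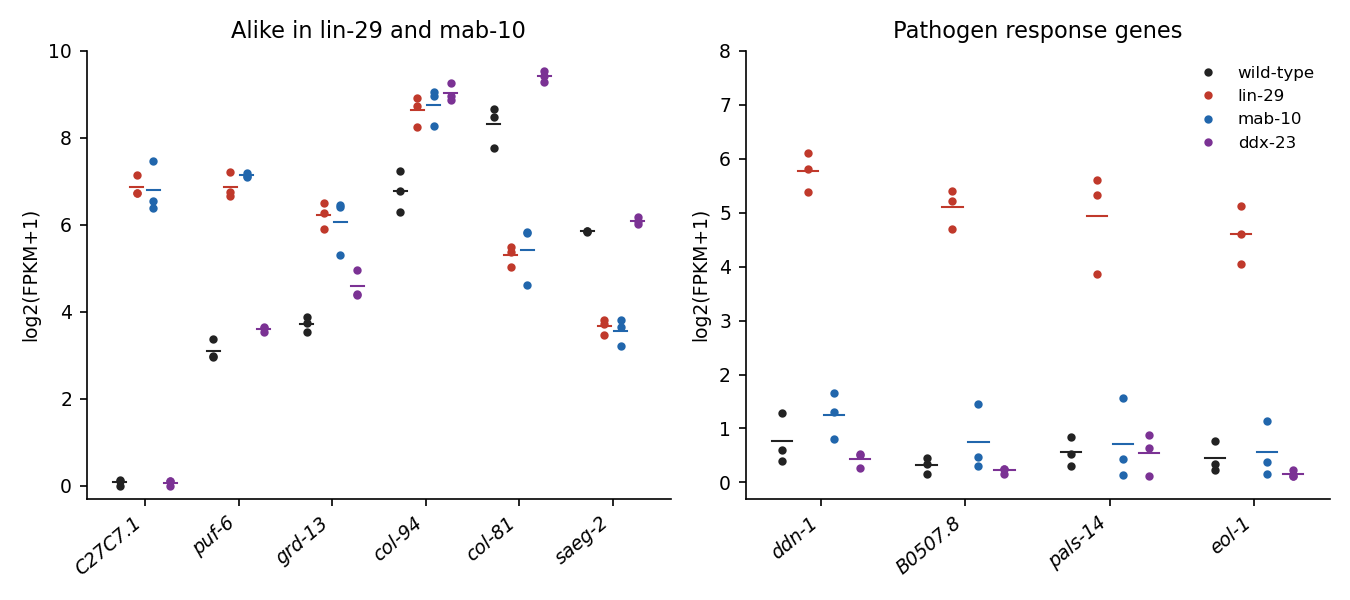
Levels as log2(FPKM+1) in each library (points) with the group mean (bar). Left, 6 of the 46 genes that changed alike in *lin-29* (red) and *mab-10* (blue) mutants; right, 4 intracellular pathogen response genes, whose *lin-29* libraries lie between 3.87 and 6.11 and all others at 1.65 or below.

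Part of the lysosomal and digestive proteases rose in *lin-29* mutants. Of 27 tested cathepsin and carboxypeptidase genes 11 rose (40.7%, against 7.28% of all tested genes) and 0 fell. At an unadjusted p under 0.05 from limma these counts were 16 and 2, and the median difference was 0.99. *cpr-5* (chromosome V, 1132598 to 1134036), a cathepsin B-like protease, was at 9.72, 9.75 and 9.48 in *lin-29* mutants and 7.79, 7.59 and 7.95 in *mab-10* mutants, while the wild-type was at 0.57, 1.37 and 0.90. Both mutants were thus far above the wild-type, and *lin-29* exceeded *mab-10* by 1.87 (SE 0.23, adjusted p = 0.000431 from limma). *cpr-1* and the aspartyl protease *asp-2* differed by 1.68 and 1.34, with *mab-10* minus wild-type differences of 0.61 and -0.39 that did not pass. Summed FPKM of the list was 14100 to 16800 in *lin-29*, 9030 to 9730 in *mab-10* and 9930 to 11000 in wild-type libraries. Among 16 intestinal marker genes, *ges-1*, a gut esterase (1.83), and *lbp-7*, a fatty acid-binding protein (1.15), rose along with *ifc-2* (0.66, adjusted p = 0.111 from limma with the replicate block on 6 libraries). The 3 are 18.8% of the intestinal list, against 7.28% of all tested genes. For *ges-1* and *lbp-7* the wild-type mean lay between the mutant means. Relative to the wild-type, *ges-1* differed by 0.92 in *lin-29* and -0.91 in *mab-10* mutants, and *lbp-7* by 0.57 and -0.58. These *mab-10* differences did not pass (adjusted p = 0.128 and 0.0503 from limma). The *mab-10* mean of *ifc-2* was above the wild-type mean, by 0.34. The part of these marker changes in the protease result was not tested.

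C-type lectins and lysozymes, secreted proteins often induced by bacteria, had 32 of 104 tested members higher and 3 lower. These were 30.8% and 2.88%, against 7.28% and 2.13% of all tested genes. The lower count was 1 without *lin-29* replicate 3 and without *mab-10* replicate 2 or 3, 5 without *lin-29* replicate 1 and 6 when *mab-10* replicate 1 was left out, and 5 with the replicate block on 12 libraries. *lys-7*, a lysozyme, was at 8.76, 8.91 and 9.54 in *lin-29* mutants and 7.27, 5.41 and 5.56 in *mab-10* mutants. All *lin-29* libraries were above the rest, with a difference of 2.99 (adjusted p = 0.00117 from limma). *clec-61* and *clec-180* rose by 2.60 and 2.54, and *clec-97* fell by 2.56. Among the *abu* and *pqn* genes, repeat-rich secreted proteins that include components of the pharyngeal cuticle, *abu-15* (3.43), *abu-7* (3.05) and *pqn-54* (2.93) rose most. Of 58 members, 9 were higher (15.5%) and 1 lower (1.72%). That count was 5 without *lin-29* replicate 2. Antimicrobial peptide genes had 6 of 41 members higher (14.6%, against 7.28% of all tested genes). Their count was 1 without *lin-29* replicate 2 or 3, 3 without *mab-10* replicate 2, and 12 when *lin-29* replicate 1 was left out. Heat shock genes had 0 of 22 members past the threshold of the limma test (1 at an unadjusted p under 0.05), and their median difference was -0.08. Detoxification enzymes, with 11 of 135 higher (8.15%) and 1 lower, were near the 7.28% of all tested genes. That count was 5 without *lin-29* replicate 2 or 3, 6 without *mab-10* replicate 2, 7 without *mab-10* replicate 3 or *ddx-23* replicate 2, and 19 without wild-type replicate 3.

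The intracellular pathogen response is a program of *pals* genes, ubiquitin ligase components and other genes that worms switch on against microsporidia and viruses. Its list was drawn up after the values had been seen, so its count is a description. Of 43 tested genes 27 were higher in *lin-29* than in *mab-10* mutants (62.8%, against 7.28% of all tested genes) and 0 lower. At an unadjusted p under 0.05 from limma these counts were 32 and 0. The median difference of the list was 1.71, and relative to the wild-type it was 1.97 in *lin-29* and 0.17 in *mab-10* mutants. *ddn-1* (chromosome V, 8758820 to 8760516) was at 5.38, 6.11 and 5.81 in *lin-29* mutants and 0.80, 1.3 and 1.65 in *mab-10* mutants, with no overlap (difference 4.52, adjusted p = 9.52e-06 from limma). *eol-1* (chromosome V, 13979462 to 13980907), named for its effect on olfactory learning, was at 4.05, 5.13 and 4.61 in *lin-29* mutants and 0.15, 0.38 and 1.14 in *mab-10* mutants. *pals-14* and B0507.8 differed by 4.22 and 4.36. Summed FPKM of the list was 414 to 657 in *lin-29*, 116 to 218 in *mab-10* and 128 to 146 in wild-type libraries, and 24 to 28 genes were higher with any 1 library left out.

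Reproductive genes differed in opposite directions. Of 64 tested sperm genes 33 were higher in *lin-29* mutants (51.6%, against 7.28% of all tested genes) and 0 lower. At an unadjusted p under 0.05 from limma these counts were 50 and 1. *msp-3*, 1 of many near-identical major sperm protein genes whose reads cannot be fully told apart, differed by 1.55. Relative to the wild-type the list had medians of 0.73 in *lin-29* and -0.40 in *mab-10* mutants, so the *mab-10* median was on the other side of the wild-type. Its summed FPKM was 2350 to 3000 in *lin-29*, 986 to 1610 in *mab-10* and 1380 to 1990 in wild-type libraries. The count was 10 without *lin-29* replicate 3, and 15 or 17 when *mab-10* replicate 1 or 3 was left out. The vitellogenins, yolk proteins made in the intestine for the oocytes, went down, with 3 of 6 lower. *vit-5* (chromosome X, 3403471 to 3408603) was at 10.82, 10.61 and 10.62 in *lin-29* mutants and 12.07, 11.48 and 11.60 in *mab-10* mutants, without overlap (difference -1.03, adjusted p = 0.000546 from limma). Relative to the wild-type the yolk list had a median of -1.95 in *lin-29* mutants and -0.87 in *mab-10* mutants, and without *lin-29* replicate 1 its count was 5. Eggshell genes had 3 of 15 lower by the adjusted p alone, each by less than 1, a count of 0 with the replicate block on 6 libraries, 1 without *lin-29* replicate 2 or 3, 0 without *mab-10* replicate 3, and 6 when *lin-29* replicate 1 was left out.

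Markers of other tissues were counted by the adjusted p from limma. None of 27 germline genes, 35 early zygotic embryo genes, 20 body wall muscle genes, 19 neuronal genes, 13 vulva and uterine genes or 83 ribosomal protein genes passed. At an unadjusted p under 0.05 the numbers higher and lower were 1 and 4 for germline genes, 0 and 3 for embryo genes, 0 and 1 for neuronal genes, 0 and 2 for ribosomal protein genes, and 0 for muscle and for vulva and uterine genes. With the replicate block, 1 embryo gene was lower in the fit of 12 libraries and 2 neuronal genes in that of 6. Of 16 pharyngeal genes 2 were lower and 0 higher, a count of 1 without *lin-29* replicate 2 or *mab-10* replicate 3 and of 0 without *lin-29* replicate 3 or *mab-10* replicate 2. Of 30 FMRFamide-like neuropeptide genes, which encode neuromodulators, 1 was lower (3.33%, near the 2.13% of all tested genes) and 0 higher. Their median difference was -0.68, with 11 lower at an unadjusted p under 0.05 from limma. With the replicate block 3 were lower in the fit of 12 libraries and 10 in that of 6, and the count with 1 library left out was 5 when *mab-10* replicate 1 was dropped, 2 for wild-type replicate 3 and 0 for wild-type replicate 1, any *lin-29* or *ddx-23* library, or *mab-10* replicate 2 or 3. Summed FPKM of germline genes was 3620 to 5070 in *lin-29* and 4550 to 5170 in *mab-10* libraries. For body wall muscle genes these ranges were 5220 to 7310 and 5910 to 7160, and for neuronal genes 461 to 590 and 462 to 756. Among 72 histone genes 17 were higher (23.6%, against 7.28% of all tested genes) and 1 lower, led by *his-17* (2.98) and *his-18* (2.34). Several of them are copies with identical values, so 17 overstates the number of separate measurements, and the count was 26 without *lin-29* replicate 1. Of 168 nuclear hormone receptors 5 rose and 5 fell, 2.98% each, against 7.28% and 2.13% of all tested genes. With the replicate block on 6 libraries these counts were 1 and 2. Among those that passed, *nhr-80*, a regulator of fatty acid desaturation, was the 1 that differed by more than 1 (1.26, adjusted p = 0.00258 from limma).

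Outside the gene families, *eef-1B.2* (WBGene00012768, chromosome IV, 15037331 to 15039551), which encodes a translation elongation factor subunit, had a large difference beside a small spread. It was at 5.58, 5.26 and 5.44 in *lin-29* mutants and at 9.16, 9.34 and 9.23 in *mab-10* mutants. Wild-type libraries were at 9.31 to 9.34 and *ddx-23* libraries at 9.06 to 9.09, so the *lin-29* libraries stood alone, lower than *mab-10* by 3.81 (SE 0.085, adjusted p = 1.54e-09 from limma). The gene C35B1.4 (WBGene00016434, chromosome IV, 4079814 to 4080146) was picked out after its values were seen. It was at 2.30, 2.91 and 2.33 in *lin-29* mutants and 7.15, 6.95 and 6.81 in *mab-10* mutants, again with wild-type levels (6.87 to 7.06) beside those of *mab-10*. *sshk-1*, at 0.00, 1.05 and 0.64 in *lin-29* mutants and 3.66, 3.50 and 4.14 in *mab-10* mutants, fell by 3.21, and its *mab-10* minus wild-type difference of 1.25 did not pass (adjusted p = 0.113).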

How the data were processed

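Total RNA of pooled whole young adults was made into libraries with the NeoPrep system and sequenced on a NextSeq500. The authors mapped reads with STAR 2.5.3a to WBcel235 and quantified genes (WS258) with RSEM 1.3.0. They deposited log2 values, log2(FPKM+1) per gene and library, so the pseudocount of 1 is theirs. No counts were used here, so read depth is unknown and the DESeq2 test of the study could not be run. In limma 3.58.1 (R 4.3.3, trend and robust) the 4 genotypes were fitted together (8 residual degrees of freedom), on genes that reached an FPKM of 1 in 3 or more libraries, with Benjamini-Hochberg adjustment over all 14199. The fit was checked against known planted differences. Differences understate the fold of low genes. Members of lists were counted by adjusted p alone. Where counts at an unadjusted p are added, no share over all tested genes at that threshold was taken, so they only describe the list. Named are the targeted genes and *col-19*, the 12 genes with symbols most higher and most lower without overlap, up to 4 genes per list with at least 2 called, and the 10 most changed alike genes. The members, the lists and the library series were chosen with earlier results of these data known. Positions are from an Ensembl annotation of WBcel235, possibly of another release. Identical values in another gene were found for 71 tested genes. Replicates are the study's biological replicates. Same-numbered *lin-29* and *mab-10* libraries deviated together (correlations of 0.46, 0.198 and 0.331 over genes, each over 0.1), although *lin-29* replicate 2 correlated more with *mab-10* replicate 3 (0.341). The correlation of *lin-29* replicate 3 with *mab-10* replicate 2 was also positive (0.124). The values therefore cannot tell matching by number from the shared library series. No label pairs the libraries, and a fit with the replicate block, which treats the numbers as pairs, was only an alternative. With 12 libraries this block joins some earlier wild-type and *ddx-23* libraries with later *lin-29* and *mab-10* ones. The other alternatives varied the samples fitted, pseudocount, filter, scaling, moderation and library series, and left out each library. Tables and figures were made in Python 3.11.15 (numpy 2.4.6, pandas 2.3.3, matplotlib 3.10.9).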

Additional observations from a re-analysis of the deposited data

How the results depend on the processing

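With the 6 *lin-29* and *mab-10* libraries fitted alone, the counts were 465 higher and 68 lower genes. A pseudocount of 5 gave 472 and 54. Quantile normalization, which moved the median of all genes to -0.107, gave 235 lower genes, the later libraries alone 236 and the earlier libraries alone 270. The earlier series holds 1 *lin-29* and 1 *mab-10* library, assumed to vary like the earlier wild-type and *ddx-23* libraries. Leaving out 1 library gave 491 to 976 higher and 80 to 157 lower genes. The replicate block gave 814 and 123 genes with 12 libraries and 839 and 130 with 6, and moved neither count by over 1.5 times. With the library series as a term the counts were 1022 and 166, also within 1.5 times. The other alternatives kept both counts within 1.5 times. Of 126 named results none was reversed, but the number that lost an adjusted p under 0.05 was 37 with the 6 libraries alone, 29 without *ddx-23* mutants in the fit, 33 with the earlier libraries and 0 to 35 with 1 library left out, the most without *lin-29* replicate 3. For the pathogen response genes, whose alternatives were added after seeing the data, an FPKM filter of 5 lowered the count to 11, with fewer genes tested. The cause of the other changes was not tested. With 3 libraries a group, unknown read depth and rounding of low FPKM, differences of genes near 0 are the least certain.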

Other observations

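Of the 114 genes lower in *lin-29* than in *mab-10* mutants, 50 lie on the X chromosome (43.9%), which holds 14.1% of tested genes. No test of this share was made. The share of tested genes called lower was 2.5% on X and 0.13% to 0.722% on the autosomes, whereas the share called higher was 5.75% on X and 2.83% to 7.8% on the autosomes. Over all tested X genes the median difference was -0.04, against -0.00417 over all tested genes. Of the 50, 5 were collagens. They also included *vit-1* and *vit-5* and the 3 genes *meg-1*, *meg-2* and *meg-3*, which encode germ granule proteins of the early embryo. *meg-1* was at 5.54, 4.92 and 4.82 in *lin-29* mutants and 6.44, 6.16 and 6.24 in *mab-10* mutants, a difference of -1.19 (adjusted p = 0.000737 from limma), and its wild-type libraries were at 6.15 to 6.19. Wild-type means were nearer to *mab-10* for 45 of the 50. The X share of the lower genes was 30.6% to 51.5% with 1 library left out and 31.8% to 49.6% under the other alternatives.

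Of the 46 genes that changed alike in both mutants, 13 were on chromosome II, which carries both *lin-29* and *mab-10* and 2493 of the 14199 tested genes. *puf-6*, *col-81* and *ifb-1* are among them.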
